A study of Saccharomyces cerevisiae with 20 samples.

Results

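A group of 72 open reading frames (ORFs), of 7127 features listed, held ribosome footprint counts mainly in the 4 libraries of budding yeast labelled RLI1_depl. They were chosen by 3 limits on the deposited counts. Summed over the 4 RLI1_depl libraries a member held at least 40 counts, summed over the 4 libraries labelled MTF and MTFi it held at most 2, and its mean CPM, the count per 1000000 counts of the library total, in RLI1_depl was at least 5 times that in the 4 NIP1_depl libraries. The first limit was reached by 715 features, 128 of these also kept within the second, and 72 met all 3. The same limits with RLI1_depl and NIP1_depl exchanged found 4 features. Levels in RLI1_depl against the MTF, MTFi and NIP1_depl libraries therefore describe the choice and were not tested.

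The study measured 80S ribosome footprints, short RNA pieces shielded from RNase I by the ribosome, in 20 libraries of Saccharomyces cerevisiae, and addressed how formylation bears on translation. All cells are labelled fmt1. Those of the arf1D, hrc1D, NIP1_depl and RLI1_depl groups expressed EcFMT, the methionyl-tRNA formyltransferase of Escherichia coli, or its R42L form. Cells of all groups grew in SC medium at 30 °C to an A600 near 0.5, and lysates were digested with RNase I for 1 h. Each of 10 groups held 2 libraries: MTFi and MTF, names that are left unexplained, and EcFMT and R42L in each of arf1D, hrc1D, NIP1_depl and RLI1_depl. The label arf1D names the small GTPase Arf1 and hrc1D resembles HCR1, which encodes eIF3j. NIP1_depl names the eIF3c subunit and RLI1_depl the ATPase Rli1. How depletion was done, and for how long, the labels do not say. Replicates are not stated to come from separate cultures, so a p-value covers the spread among these libraries, which may be technical.

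Rli1, called ABCE1 in mammals, splits the ribosome after termination, so that both subunits can be used again. In yeast short of Rli1, ribosomes that have finished an ORF are known to stay near the stop codon and to appear in the 3′ untranslated region of the mRNA. The subunit eIF3j has also been tied to recycling, while eIF3c acts in initiation. Genes of the compact yeast genome often lie tail to tail, so that the 3′ ends of their mRNAs approach or cross.

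Library totals ranged from 58090 to 505676 counts, and those of RLI1_depl were 92583 and 123204 with EcFMT and 58090 and 104382 with R42L. The MTF and MTFi libraries, which set the second limit, were deeper, at 307898 to 492363. Abundant genes held almost no counts under their own names: CDC19, the pyruvate kinase gene, held 2 over all 20 libraries. The sources used here do not say whether strand was used in counting. A count under an ORF's name is therefore not read as translation of that ORF. The genes named by the strain labels could not check them, with 0 counts for FMT1 (chromosome II, 202056 to 203261) and RLI1 (IV, 626708 to 628534) and 2.5 for ARF1 (IV, 116321 to 116866) over 20 libraries. HCR1 (XII, 538792 to 539589) held 3.84 and NIP1 (XIII, 892988 to 895426) held 2. Coordinates here and below are those of R64.

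The members took 1.72% and 1.71% of all counts in the RLI1_depl libraries with EcFMT, with 95% exact binomial intervals of 1.64 to 1.81 and 1.64 to 1.78. With R42L they took 2.26% (2.14 to 2.38) and 2.22% (2.13 to 2.31). Such intervals cover counting error only, since reads copied by PCR are not independent molecules. In the other groups the share was far lower. It was 0.103% ± 0.0021 (SD, n = 2) in NIP1_depl with EcFMT and 0.107% ± 0.0071 with R42L, and 0.0423% ± 0.0035 and 0.0348% ± 0.0032 in hrc1D. In arf1D it was 0.0098% ± 0.0025 with EcFMT and 0.0076% ± 0.0006 with R42L, against 0.0038% ± 0.0001 in MTFi and 0.0032% ± 0.0008 in MTF. The 2 RLI1_depl groups did not overlap with each other, and both stood above every other group.

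Much of this order was shared by other ORFs. ORFs of the RefSeq table that are not members took 11.7% ± 0.393 of counts in RLI1_depl with EcFMT, 15.7% ± 0.163 with R42L, 8.17% ± 0.0827 in NIP1_depl with EcFMT and 0.579% ± 0.0014 in arf1D with EcFMT (SD, n = 2 each). A ratio within each library, the members' counts per 100 counts on these other ORFs, does not depend on depth or on scaling. It was 15.04 and 14.2 in the RLI1_depl libraries with EcFMT and 14.3 in both with R42L. The R42L values lay between the EcFMT values. In the remaining groups the ratio stayed between 0.641 ± 0.179 in MTF and 1.7 ± 0.424 in arf1D with EcFMT, with 1.26 ± 0.0396 and 1.36 ± 0.099 in NIP1_depl (SD, n = 2 each). The RLI1_depl libraries stood above those of every other strain in this ratio. The rule chose members for high counts in RLI1_depl, which favoured this order against hrc1D and arf1D as well. Nothing is read from it. The ratio placed hrc1D (1.68 ± 0.157 and 1.55 ± 0.0014) beside arf1D (1.7 ± 0.424 and 1.36 ± 0.0856). Without COS111 and APM3, the members with most counts, it was 12.7 ± 0.685 with EcFMT and 11.8 ± 0.0721 with R42L in RLI1_depl.

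**Figure D1:**
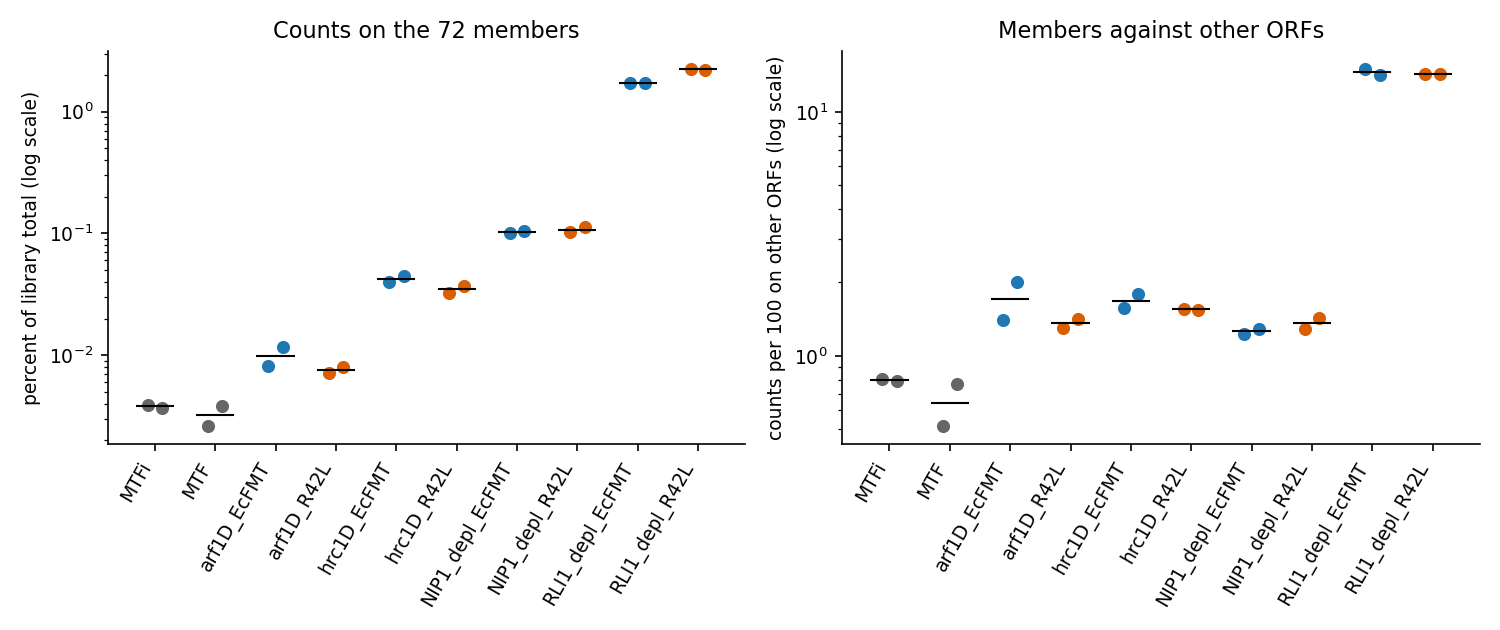
Member counts as percent of the library total (left) and per 100 counts on the 5808 other ORFs (right). Both are on log scales, with 1 point per library and a bar at the group mean. On the left the groups climb from 0.0032% in MTF to 2.24% in RLI1_depl with R42L, while on the right the RLI1_depl libraries lie at 14.2 to 15.04 and the means of all other groups at or below 1.7.

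All 72 members had counts in each of the 4 RLI1_depl libraries. Summed over the 4 libraries they held 40 to 584 counts, with a median of 71.2. For 71 members every RLI1_depl library lay above all 16 other libraries in CPM. The same held for 31.1% of all 1399 features tested, and since the rule used most of these libraries nothing is read from it. The exception was FRK1, a protein kinase gene, with 3 and 18 counts in RLI1_depl with EcFMT, 19 and 26 with R42L, and 9 and 1 in NIP1_depl with EcFMT. Together the members held 7329 counts in RLI1_depl, 590 in NIP1_depl, 344 in hrc1D, 148 in arf1D and 52 in MTF and MTFi.

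Many members were at 0 in whole strains. Counts were 0 in all MTF and MTFi libraries for 33 members, in all arf1D libraries for 28, in all NIP1_depl libraries for 11 and in all hrc1D libraries for 9. The rule itself favoured zeros in MTF, MTFi and NIP1_depl. The share over all features was not counted, so nothing is read from these numbers. For 4 members all 16 libraries outside RLI1_depl were at 0, which allows up to 0.65 CPM of their 4615096 counts (3 counts, counting error only). These were EFG1, a gene of 18S rRNA maturation, HAT2, which encodes a subunit of a histone acetyltransferase, ORC6, which encodes a subunit of the origin recognition complex, and the small ORF YLR264C-A. They held 72.6, 43.9, 42.7 and 46 counts over RLI1_depl and were singled out after their values were seen.

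COS111 (YBR203W, chromosome II, 629168 to 631942), a gene linked to resistance to the antifungal ciclopirox, held the most. Its counts were 143 and 206 in RLI1_depl with EcFMT and 108 and 127 with R42L. In NIP1_depl it held 10 and 1 with EcFMT and 3 and 2 with R42L, and in hrc1D 10 and 17, then 8 and 12. As CPM it stood at 1573 ± 270 in RLI1_depl (SD, n = 4) and 26.3 in NIP1_depl on average, a ratio of 59.7. The EcFMT and R42L libraries overlapped.

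APM3 (YBR288C, II, 778012 to 779463), which encodes the medium subunit of the AP-3 vesicle adaptor, came next with 55 and 89 counts with EcFMT and 125 and 261 with R42L. Here the enzyme forms did not overlap. YGL176C (VII, 171415 to 173079), an uncharacterized ORF, held 52, 53, 53 and 72 counts in the same order, and 13 to 26 in each NIP1_depl library. LCL1 (XVI, 453430 to 453735), a short ORF named for chronological lifespan, held 52, 71, 32 and 66. As CPM, the R42L libraries of YGL176C lay above its EcFMT libraries (912 and 690 against 562 and 430), while those of LCL1 overlapped.

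EST2 (XII, 766542 to 769196), the telomerase reverse transcriptase gene, held 38.3 and 63.8 counts with EcFMT and 25 and 72 with R42L. Among the 16 other libraries it had 3.03 counts in 1 hrc1D library and 1 in 1 NIP1_depl library. Its ratio of 267 to NIP1_depl was the highest among the 61 members with a count there, and it rests on that single count. YBR221W-A (II, 666538 to 666642), a small ORF of 105 nt, held 40.4, 37.2, 43.3 and 77.2 counts and was at 0 in all NIP1_depl, hrc1D and arf1D libraries. It had the highest count per kilobase of all members, 1886 over the 4 libraries.

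NMT1, the protein N-myristoyltransferase gene (XII, 541937 to 543304), held 169 counts over RLI1_depl, as did YBL071C (II, 90223 to 90531). TRM12, a gene of wybutosine synthesis in tRNA (XIII, 260221 to 261609), held 164, and ECM12 (VIII, 149225 to 149680), an uncharacterized ORF, 153. TSC11, which encodes a TORC2 subunit (V, 343320 to 347612), held 153 and SRF1, a regulator of phospholipase D (IV, 222427 to 223740), 149. In each of these 6 the lowest RLI1_depl library still held 20 or more counts, and the highest library outside RLI1_depl held 8 or fewer. RSEM's own posterior standard deviation was at most 1.48 counts for any member in any RLI1_depl library, and 0 in all 4 for 19 members, which is small beside these sums.

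**Figure D2:**
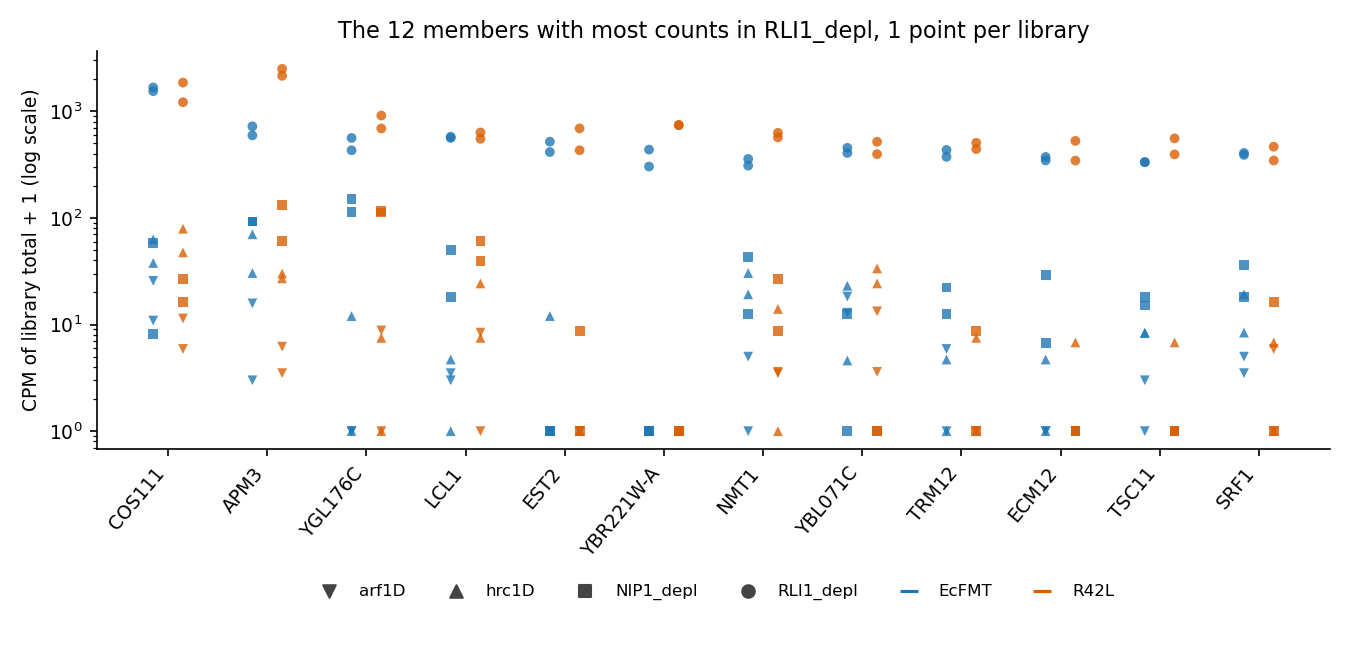
CPM of the library total plus 1, on a log scale, for the 12 members with the largest RLI1_depl counts, with 1 point per library of arf1D, hrc1D, NIP1_depl and RLI1_depl, shaped by strain and coloured by enzyme form. Every RLI1_depl point of a member lies above that member's other points, and APM3 shows a gap between EcFMT and R42L within RLI1_depl.

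The members were spread over the genome and shared an arrangement that the rule did not use. They lay on 15 chromosomes, most often XVI with 9 and VIII with 8, with 34 on the Watson and 38 on the Crick strand. Positions were found for 71 of them, all but YMR173W-A. For 56 of these 71 (78.9%) the nearest feature past the ORF's 3′ end lay on the other strand, tail to tail, called convergent here. Among all 5967 coding ORFs with a position, 3120 (52.3%) had a convergent neighbour. The gap between a member and its convergent neighbour had a median of 100 nt (quartiles 69.2 to 146), against 219 nt (136 to 334) over all ORFs.

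Close pairs made up most of the difference. A convergent neighbour within 100 nt was found for 29 of the placed members (40.9%) and for 431 of all ORFs (7.22%). Within 200 nt the counts were 46 (64.8%) and 1408 (23.6%). Read the other way, of 393 ORFs with a convergent neighbour within 100 nt and no opposite overlap of 30 nt or more, 28 (7.12%) were members. This share fell to 1.65% of 971 ORFs from there to 200 nt, 0.6% of 1163 from there to 400 nt and 0.56% of 538 beyond. Among ORFs whose neighbour lay on the same strand, called tandem here, members were 1 of 85 at 100 nt or less, 0 of 183 up to 200 nt, 0.51% of 1179 up to 400 nt and 0.59% of 1365 beyond.

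**Figure D3:**
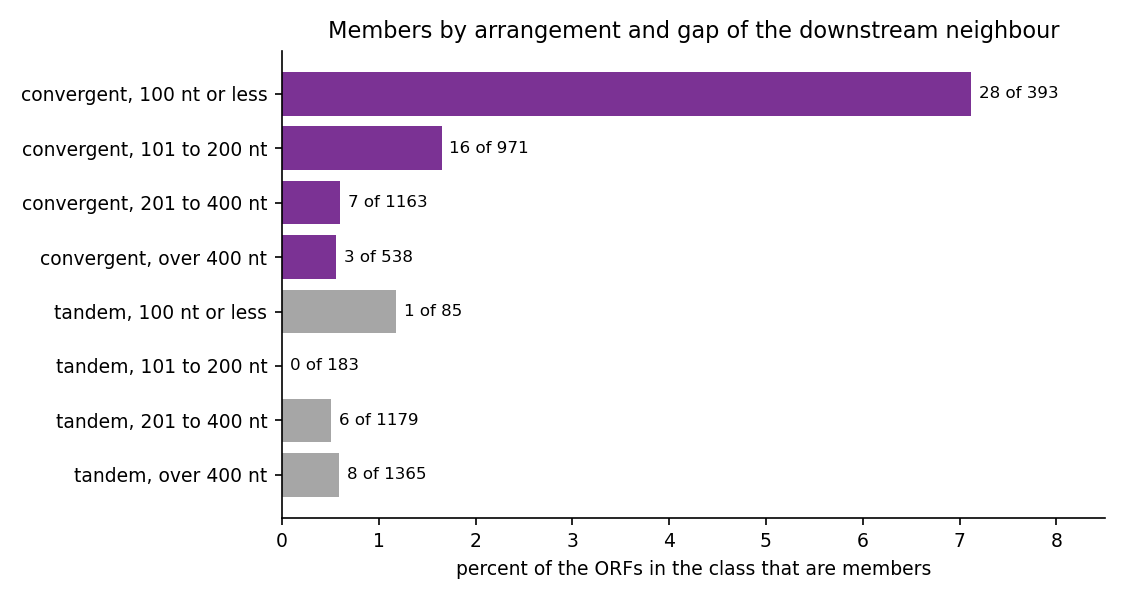
Percent of the ORFs in each class that are members, for convergent (purple) and tandem (grey) downstream neighbours by gap; the bars start at 0. The class of convergent neighbours within 100 nt stands at 7.12%, the next convergent class at 1.65%, and all others at 1.18% or less.

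Other ORFs with many RLI1_depl counts had a convergent neighbour less often than the members, to a degree that differed with the limit they failed. Many of the 715 features with 40 or more RLI1_depl counts had no position and are left out here. Of 280 placed ORFs that reached 40 counts in RLI1_depl but were not members, 45.4% had a convergent neighbour, at a median gap of 208 nt. Of these, the 53 that failed only the limit on the ratio to NIP1_depl stood at 49.1% with a median gap of 218 nt. The 31 that failed only the limit on MTF and MTFi lay nearer the members, at 61.3% with a median gap of 105 nt. Among these 31 a convergent neighbour lay within 100 nt for 25.8% and within 200 nt for 45.2%. The close convergent arrangement was thus not particular to the members. These shares are descriptions of positions in the genome, and no test was made of them. Since the deposited counts carry no read positions, where in a member the footprints lay, and on which strand, was not tested.

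At the 5′ end, the neighbour was divergent, head to head, for 46 members (64.8%) against 51.9% of all ORFs. Both a divergent upstream and a convergent downstream neighbour were found for 39 (54.9%) against 27.9%. An overlap of at least 30 nt with a feature on the other strand was rare, at 2 members (2.82%) against 1.51%.

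The named members with a convergent neighbour within 100 nt had varied functions. ECM12 overlapped YHR022C, an uncharacterized ORF, by 106 nt, and YBL071C overlapped KTI11, a gene of diphthamide synthesis, by 4 nt. KRE29, which encodes a subunit of the Smc5-Smc6 complex (V, 226858 to 228252), ended 3 nt from PHM8, a phosphatase gene. MTQ1, a methyltransferase gene for the mitochondrial release factor (XIV, 507758 to 508702), lay 73 nt from GCD10, a tRNA methyltransferase subunit gene. YBR221W-A lay 77 nt from PCS60, a peroxisomal enzyme gene, TSC11 87 nt from IES5, an INO80 subunit gene, and TRM12 95 nt from GLO1, the glyoxalase I gene.

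At longer gaps, EST2 faced the cell polarity gene BUD6 across 121 nt. YAL037C-A, a small ORF (I, 73426 to 73518), faced CDC19 across 137 nt, and APM3 faced the uncharacterized YBR287W across 157 nt. IQG1, a cytokinesis gene (XVI, 90622 to 95109), faced SRP68, a signal recognition particle gene, across 305 nt. COS111 faced LDH1, a lipid droplet hydrolase gene, across 311 nt and YGL176C faced MPT5, an mRNA-binding Puf protein gene, across 843 nt. The member with the most counts was thus among the less close pairs. Over the 56 convergent members the Spearman correlation between gap and RLI1_depl counts was 0.147, a description over ORFs that share the same libraries.

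The convergent neighbours held few counts under their own names. Their median over the 4 RLI1_depl libraries was 4 counts, and 33 of 56 held 5 or fewer. The same values were not computed over all ORFs, so low counts are not read as a trait of these neighbours. GLO1 held 5, PHM8 5, PCS60 2, LDH1 1, and CDC19 and BUD6 0. Of the 56 neighbours 4 reached 40 counts. In the classes of ORFs by downstream neighbour and gap, 4.21% to 11.2% did so. The 4 neighbours were themselves members, in 2 facing pairs. ARO9, an aromatic aminotransferase gene, with 106 counts faced YHR138C, an ORF of unassigned role in the files, with 68.7, at 104 nt. ISR1, a kinase gene, with 60.9 faced YTH1, an mRNA 3′-end processing gene, with 56.7, at 45 nt. These pairs were named after their values were seen.

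The 15 members with a tandem neighbour had a median gap of 452 nt (96 to 1449), against 393 nt over all ORFs. Among them LCL1 lay 372 nt before the sphingolipid gene SUR1, NMT1 363 nt before the cell wall gene NCW2 and SRF1 563 nt before the cullin gene CDC53. TIM12, a gene of mitochondrial inner membrane import (II, 427155 to 427484), lay 96 nt before YBR090C. ADE8, whose enzyme puts a formyl group on a purine precursor (IV, 1288215 to 1288859), lay 276 nt before TRS120, a vesicle tethering gene. NMT1, SRF1 and ADE8 had divergent upstream neighbours at 663, 625 and 546 nt.

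**Figure D4:**
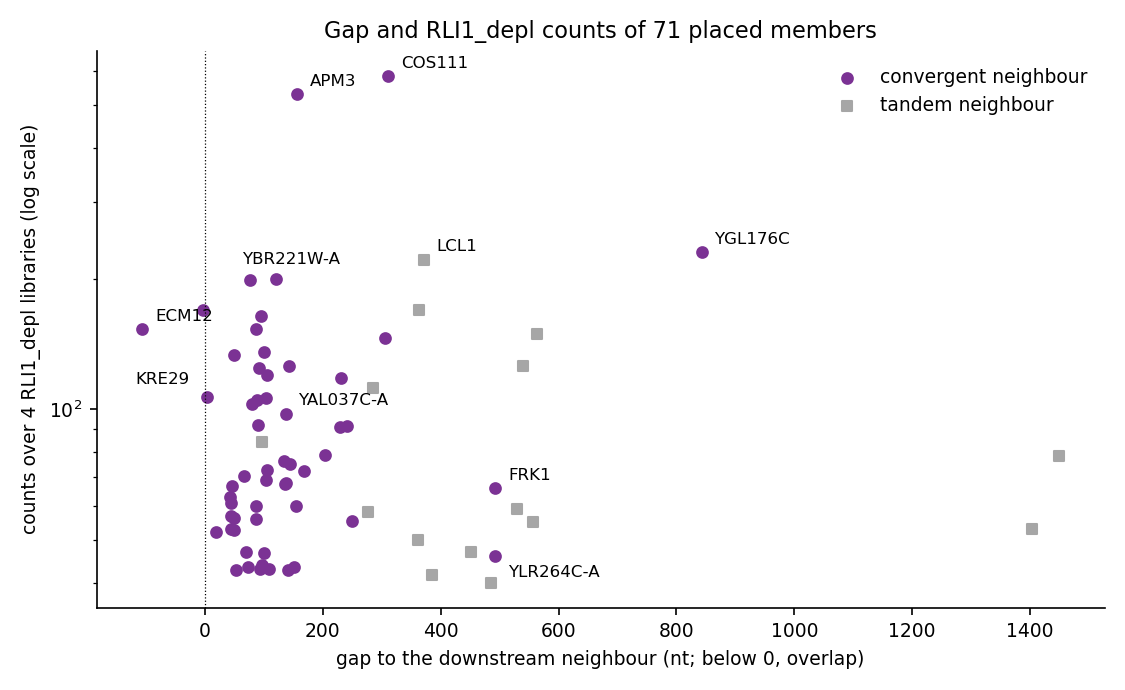
Counts summed over the 4 RLI1_depl libraries (log scale) against the gap to the downstream neighbour in nt for the 71 placed members, with convergent and tandem neighbours marked apart; values below 0 are overlaps. Most convergent members crowd between 0 and 200 nt at all count levels, while COS111 at 311 nt and YGL176C at 843 nt lie outside that range.

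Members were somewhat shorter than other ORFs and spanned a wide range. Their median length was 978 nt (quartiles 616 to 1482), against 1194 nt (681 to 1869) for all placed coding ORFs, with extremes of 93 and 4638 nt. There were 3 members of 300 nt or shorter and 10 over 2000 nt. Counts per kilobase over RLI1_depl ran from 11.9 in TCB3, a gene of contacts between the endoplasmic reticulum and the plasma membrane, to 1886 in YBR221W-A, with a median of 75.9. The small ORF YAL037C-A had 1052 and LCL1 722. Over the 72 members the Spearman correlation between length and summed count was 0.184. TSC11, at 4293 nt, and NMT1, at 1368 nt, held 153 and 169 counts.

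The comparison of EcFMT with R42L in RLI1_depl asked how EcFMT and its R42L form differ in this strain. Of the 72 members, all of which passed the filter on low counts, 1 fell and 0 rose, while 3.43% of the 1399 features tested were called (2.79% higher and 0.643% lower). Only 9 members would have passed the filter without the RLI1_depl libraries. The median log2 difference, EcFMT minus R42L, was 0.08 over the members and 0.05 over all features, with 39 members positive and 33 negative. It turned with the scaling, to -0.06 with RLE size factors and -0.22 with library totals, beside -0.09 and -0.26 over all features. The members' median lay close to that of all features under each of these 3 scalings. At an unadjusted p under 0.05 there were 9 members and 206 features.

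APM3 was the member called. Its CPM of library total was 594 and 722 with EcFMT and 2152 and 2500 with R42L, with no overlap. The log2 difference was -1.53 (SE 0.25, Benjamini-Hochberg adjusted p = 2.07e-06 by edgeR's quasi-likelihood test). It held its call without each RLI1_depl library in turn and under every other setting of edgeR tried. In NIP1_depl its CPM was 91.6 and 91.7 with EcFMT and 60 and 130 with R42L, and in hrc1D 29.4 and 69.2 against 29.1 and 26.1. In those strains the enzyme forms overlapped or, in hrc1D, lay in the opposite order. The difference in RLI1_depl minus the mean difference in the other 3 strains was -2.13 (SE 0.48, adjusted p = 0.00217, edgeR), where 1.72% of features were called (1.29% higher and 0.429% lower). APM3 was again the only member among them. DESeq2 gave -2.27 with adjusted p = 0.208 for this difference between strains.

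KRE29 and YAL037C-A had the next smallest p-values and were not called in the main fit. KRE29 held 13 and 15 counts with EcFMT and 29 and 50 with R42L, that is 140 and 122 CPM against 499 and 479. Its log2 difference was -1.60 (SE 0.53, adjusted p = 0.0635, edgeR). It was called by edgeR with RLE size factors (adjusted p = 0.0356), library totals (0.0166) and TMM factors from features not in RefSeq (0.0212). In a fit of only the RLI1_depl libraries it was also called (adjusted p = 0.000117, edgeR), and with no filter it was not (0.424). YAL037C-A held 36.7 and 33.3 counts with EcFMT and 9.44 and 18.4 with R42L, a log2 difference of 1.29 (SE 0.53, adjusted p = 0.209, edgeR). It was called only in the fit of the RLI1_depl libraries alone (adjusted p = 0.0473, edgeR). Both KRE29 and YAL037C-A had libraries that did not overlap.

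Without a model, 23 of 72 members (31.9%) had both EcFMT libraries below both R42L libraries in CPM of the library total, and 7 (9.72%) had both above. Over all features tested the shares were 32.1% and 13.1%. The members' counts were near the background in both directions, and 42 members overlapped.

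**Figure D5:**
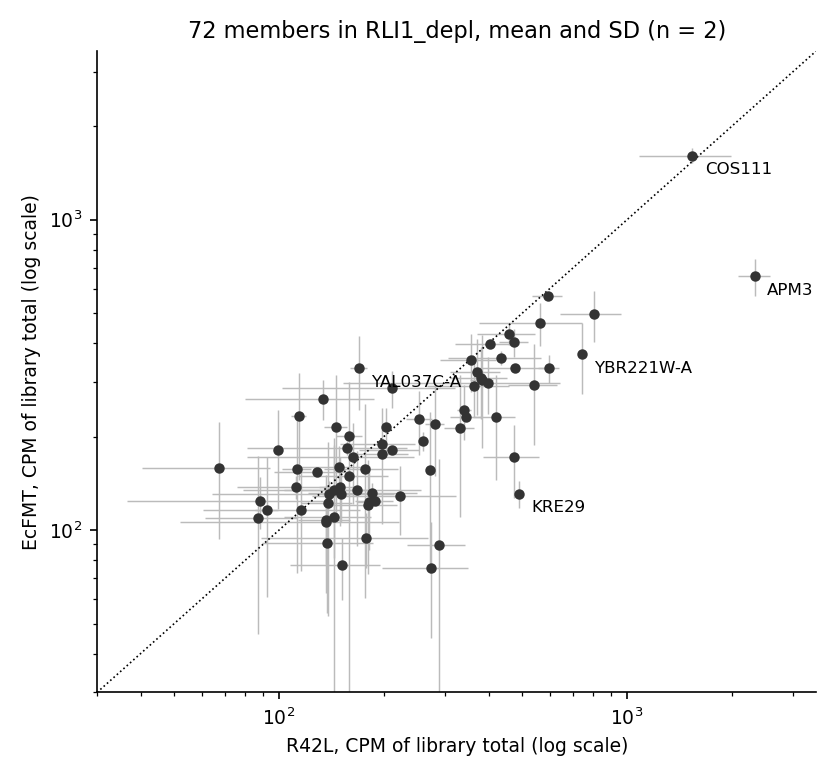
Mean CPM of the library total in RLI1_depl with EcFMT (vertical) against R42L (horizontal) for 72 members, both on log scales, with bars of 1 SD (n = 2), shortened at the low end where they would pass 0, and the line of equal values. Members lie on both sides of the line, COS111 lies close to it, APM3 and KRE29 lie below it and YAL037C-A above it.

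The rule used neither hrc1D nor arf1D, so these strains give a comparison that did not choose the members. Mean CPM of the library total was higher in hrc1D for 59 members (81.9%) and lower for 7, and it was higher for 79.4% of all features tested, so the members' share was near that of the rest. In the edgeR fit 6 members rose and 0 fell, or 8.33%, where 18.7% of features were called higher and 16.8% lower (35.5% in all). Most members entered this fit only through their RLI1_depl counts. The shares therefore cover unlike features, and nothing is read from their difference. The number called was 15 with library totals, where 707 of 1399 features were called. It was 3 with no filter on low counts, where 435 of 5334 were called. With R42L libraries alone it was 1, where 330 of 1399 were called. The number also changed when single libraries were left out. The median log2 difference of all features, hrc1D minus arf1D, was 0.37, and it was 0.68 with RLE size factors and 1.29 with library totals. Without the RLI1_depl libraries 9 members would have passed the filter, so the fitted differences of most members rest on few counts in these strains and depend on the fit's prior count. No median over the members is given for that reason.

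COS111 and APM3 had the most counts in hrc1D. COS111 held 10, 17, 8 and 12 counts in hrc1D, EcFMT libraries first, and 5, 10, 2 and 4 in arf1D, whose libraries were deeper. Its log2 difference was 1.17 (SE 0.42, adjusted p = 0.0159, edgeR). APM3 held 8, 19, 5 and 4 in hrc1D and 1, 6, 1 and 2 in arf1D, with a difference of 1.62 (SE 0.55, adjusted p = 0.0111). As CPM, every hrc1D library of both lay above every arf1D library. On that scale the mean was higher in hrc1D for 79.4% of all features tested, so nothing is read from this order. Both lost their call without arf1D_EcFMT replicate 1, arf1D_R42L replicate 1 or hrc1D_EcFMT replicate 2, APM3 also without hrc1D_R42L replicate 1 and COS111 also without hrc1D_R42L replicate 2. Without these libraries COS111 stood at 0.86 to 0.96 and APM3 at 1.13 to 1.56.

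The other 4 called members rested on few counts. TIM12 held 2, 6, 0 and 3 counts in hrc1D and 0 in all 4 arf1D libraries (adjusted p = 0.00756, edgeR). MTQ1 held 2, 3, 0 and 2 against 0 in all 4 (adjusted p = 0.0468). IQG1 held 3, 4, 2 and 1 against 1 count in all (adjusted p = 0.0328), and ADE8 held 4, 11, 1 and 2 against 3 counts, all in 1 library (adjusted p = 0.038). IQG1 and ADE8 had counts in every hrc1D library, while TIM12 and MTQ1 were at 0 in hrc1D_R42L replicate 1. Each of the 6 members lost its call without at least 1 library. TIM12 lost it without hrc1D_R42L replicate 2 and with R42L libraries alone, and IQG1, ADE8 and MTQ1 each lost it without 6 of the 8 libraries in turn.

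YBL071C and NMT1 were among the 5 members with most counts in hrc1D but were not called. YBL071C held 6, 1, 4 and 5 counts there and 6, 7, 5 and 1 in arf1D. NMT1 held 8, 5, 0 and 2 against 2, 0, 1 and 1. In both the strains overlapped.

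The lists of recycling, initiation and meiosis genes held no members. Members were 72 of 7127 features, a share at which lists of 20 to 41 genes would hold few or none. Nothing is read from their absence. Of 30 genes of ribosome recycling and rescue, 0 were members and 12 held 0 counts in all RLI1_depl libraries. The highest was RKR1, a ubiquitin ligase gene of ribosome-associated quality control, with 52 counts, the only one deep enough to test. It was called in hrc1D minus arf1D (log2 0.89, adjusted p = 0.0268, edgeR) and not between the enzyme forms (0.12, adjusted p = 0.971). SLH1, a helicase gene that acts on collided ribosomes, faced the member EFG1 across 105 nt and held 2 counts under its own name. Of 20 genes of eIF3 and initiation, 0 were members, 13 held 0 counts and none could be tested. Of 41 meiosis and sporulation genes, 0 were members and 19 could be tested. Of these 0 were called between the enzyme forms, and 8 rose and 0 fell in hrc1D minus arf1D, where 18.7% of all features were called higher and 16.8% lower. MER1, a splicing factor gene, held the most RLI1_depl counts of this list, 319.

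The limits of the rule passed through a continuous range. On the RLI1_depl sum, DPM1, the dolichol phosphate mannose synthase gene, at 40 and APC4, which encodes a subunit of the anaphase-promoting complex, at 41.5 lay just inside, and SPO74 at 39.8 and SLI1 at 39 just outside. On the MTF and MTFi sum, KIN3 and TIM12 at 2 counts lay inside and REF2 and PFK26 at 3 outside. On the ratio to NIP1_depl, YER010C at 5.13 and ADE8 at 5.21 lay inside and YNL193W at 4.13 and ECL1 at 3.81 outside. The share of members with a convergent neighbour was 71.6% to 87.9% when a single limit was moved.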

How the data were processed

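Ribosome footprints of 20 libraries in 10 groups of 2 were analysed from per-gene RSEM tables. Per the submitters' processing notes, STAR 2.7.2b, RSEM 1.2.31 and the build R64 were used. The values are expected counts as deposited by the authors, not scaled for depth, with a posterior standard deviation of the count per feature, a score that the authors' RSEM run also deposited. Library totals and CPM of the library total were computed on the unrounded counts, over all 7127 features. Strand was read from systematic names (W or C) and positions from a RefSeq table of R64, which matched 6047 features. A neighbour was the nearest listed feature that extends past the ORF's end.

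Tests used edgeR 4.0.16 in R 4.3.3 (limma 3.58.1) on rounded counts of 6691 coding features: TMM factors (0.364 to 3.34), filterByExpr at a minimum count of 10 (1399 kept, 437 of them not in RefSeq), 1 mean per group over all 20 libraries, 10 residual degrees of freedom, a robust quasi-likelihood fit and Benjamini-Hochberg adjustment over all features tested. The threshold was an adjusted p under 0.05. The common biological coefficient of variation was 0.11. SE is the absolute log2 difference over the square root of F. Alternatives were RLE, library totals, factors from features not in RefSeq, DESeq2 1.42.0, no filter, subsets of libraries, replicate blocks and leaving out each library. Where a group was left with 1 library, it was assumed to vary like the others.

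The members, the lists and the tests were chosen with earlier results of these data known. The genes named are the 12 members with most RLI1_depl counts, members called in a comparison or of smallest p, the 5 with most hrc1D counts, those nearest each limit, their neighbours and the genes of the strain labels; others are said to be chosen after their values were seen or stand as examples of a count. RNA sequencing libraries were not used here.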

Additional observations from a re-analysis of the deposited data

Results flagged for a closer look

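APM3 was the member whose difference between EcFMT and R42L in RLI1_depl departed from that in the other strains by a test of the difference itself. The log2 difference in RLI1_depl minus the mean over arf1D, hrc1D and NIP1_depl was -2.13 (SE 0.48, Benjamini-Hochberg adjusted p = 0.00217 by edgeR's quasi-likelihood test), with both R42L libraries of RLI1_depl above both EcFMT libraries. Its counts outside RLI1_depl were 1 to 19 per library of the 3 other strains, so the mean over those strains rests on few reads. DESeq2 did not call it (adjusted p = 0.208).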

How the results depend on the processing

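The members called and named kept their direction under every alternative run, but the members' median between EcFMT and R42L turned from 0.08 to -0.06 with RLE, -0.22 with library totals and -0.18 with TMM factors from features not in RefSeq. Between EcFMT and R42L in RLI1_depl 1 member was called, where 48 of 1399 features were. With RLE size factors, library totals and TMM factors from features not in RefSeq 2 were called, as KRE29 joined APM3. Of all features 37, 39 and 33 were called, in that order. In a fit of only the libraries compared 8 of 71 members (2 higher, 6 lower) and 69 of 796 features were called. Leaving out each library gave 1 to 1 calls. DESeq2 gave no member an adjusted p (APM3 unadjusted p = 0.00168). In hrc1D minus arf1D 6 members were called, where 497 of 1399 features were. With library totals 15 were called (707 of 1399 features), and with no filter 3 (435 of 5334). With only the libraries compared 1 was called (449 of 601 features), and 1 member passed the filter. R42L libraries alone gave 1 (330 of 1399 features), EcFMT libraries alone 4 (374 of 1399) and DESeq2 5 (448 of 5334). The number also changed when single libraries were left out. COS111 stood at 0.46 with EcFMT libraries alone and ADE8 at 0.17 with R42L libraries alone. The cause of these changes was not tested. For the difference between strains DESeq2 called 0 members, with 17 of all features called.

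Replicate numbers did not pair the libraries: deviations from group means correlated at 0.02 between the enzyme forms in RLI1_depl and at -0.10 and 0.13 between hrc1D and arf1D with EcFMT and R42L. With a replicate block 1 member (APM3) was called between the enzyme forms and 5 in hrc1D minus arf1D, where MTQ1 was lost (adjusted p = 0.0556). A crossed block, added after the data were seen, called 1 between the enzyme forms.

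The rule gave 30 members with at least 80 counts in RLI1_depl, 132 with at least 20, 33 with 0 counts in MTF and MTFi, 93 with up to 10, 56 at a ratio of 10 and 96 at a ratio of 2. Without each RLI1_depl library it gave 69 to 76. Of the 72 members, 66 to 69 were among these. The shallowest library, RLI1_depl_R42L replicate 1, held 58090 counts.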

Other observations

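ORFs that are not members showed a related pattern in RLI1_depl, given here as a description with no test. Among ORFs with a convergent neighbour, mean CPM per ORF in RLI1_depl was 28.2 ± 3.75 at gaps of 100 nt or less, 25.4 ± 4.76 from there to 200 nt, 19 ± 3.79 from there to 400 nt and 16.6 ± 3.52 beyond (SD over 4 libraries). In NIP1_depl the same classes stood at 11.9 ± 0.615, 11.5 ± 0.375, 11.2 ± 0.384 and 10.7 ± 1.25. The means fell with the gap in RLI1_depl, where the SDs of neighbouring classes overlapped, and by less in NIP1_depl. Each SD spans EcFMT and R42L libraries, and in RLI1_depl these differed in their level on such ORFs. Nothing is therefore read from the overlap, and the fall was not followed within single libraries.

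Among tandem ORFs the values in RLI1_depl were 13.7 ± 2.11, 30.9 ± 4.95, 26.8 ± 3.73 and 24.4 ± 3.95 by the same gap classes, and 12.4 ± 0.935, 26.3 ± 1.06, 16.4 ± 0.282 and 15.7 ± 0.366 in NIP1_depl. ORFs with a convergent neighbour within 200 nt, which make up 22.7% of 5808 ORFs, took 24.8% to 25.8% of the counts on other ORFs in the RLI1_depl libraries and 16.1% to 19.7% in the 16 other libraries. These ranges did not overlap. ORFs with a convergent neighbour at any gap made up 51.84% of the 5808 ORFs. They took 46.27% to 48.96% of these counts in the RLI1_depl libraries and 36.15% to 43.66% in the 16 other libraries. At any gap their share of counts was thus below their share of ORFs in every library.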
